A study of Mus musculus with 9 samples.

Results

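The genes described here are the 3 mouse Aurora kinases (Aurka, Aurkb and Aurkc), 3 partners of Aurora kinase B in the chromosomal passenger complex (Incenp, Birc5 and Cdca8) and shugoshin 1 (Sgo1). They were chosen by name, for what their proteins do, with earlier results of these data known. They are 7 of the 46078 gene identifiers in the counts. The study asked how cultured spermatogonial stem cells (SSCs) change when they begin to differentiate, and it sequenced poly-A RNA from 9 libraries, 3 at each of 0 h, 24 h and 48 h. All 9 came from EGFP-SSCs, 1 mouse line of wild-type genotype that carries green fluorescent protein. The 0 h cells were in normal culture on mitomycin C-treated embryonic fibroblasts, in a StemPro-34 medium with epidermal growth factor, basic fibroblast growth factor and glial cell line-derived neurotrophic factor. The 24 h and 48 h cells had been mixed 1:1 with somatic cells from testes of busulfan-exposed mice, taken 3 to 7 days after birth. That medium held retinoic acid, BMP-4/7, activin A, testosterone, follicle-stimulating hormone and bovine pituitary extract, and fluorescent cells were sorted from the mixture. Feeder, medium, added factors and co-cultured cells changed together with time, so their contributions cannot be told apart. The labels call the libraries biological replicates and say nothing more of their origin, and all come from 1 line, so p-values here measure the spread between these libraries.

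Aurora kinases are serine/threonine kinases of cell division. Aurora kinase A acts at centrosomes and spindle poles, where TPX2 activates it, while Aurora kinase B forms the chromosomal passenger complex with INCENP, survivin (encoded by Birc5) and borealin (encoded by Cdca8). INCENP holds the complex together and activates the kinase, and survivin and borealin bring it to centromeres. There the complex releases wrongly attached microtubules and phosphorylates serines in the tail of histone H3, and later it moves to the central spindle for cytokinesis. Aurora kinase C can take the place of Aurora kinase B in the complex and is known for its work in meiotic germ cells. Shugoshin 1 protects the cohesin that joins sister centromeres and helps to bring the complex there. Transcripts of most of these genes are known to be highest in G2 and mitosis, so their level in a culture also reflects how many cells are dividing.

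Of the 7 genes, Aurkc was the one that moved most: its level doubled at 24 h and came down again by 48 h. Sgo1 rose slightly from 24 h to 48 h, a call that several settings removed. Aurka, Aurkb, Incenp, Birc5 and Cdca8, which include the kinase and the other 3 subunits of the mitotic complex, passed the test in none of the 3 comparisons. In 24 h against 0 h, 1 of the 7 genes was called higher and 0 lower by edgeR's quasi-likelihood test at an adjusted p of up to 0.05, where 25.5% of all genes tested were called, 11.4% higher and 14.2% lower. In 48 h against 0 h, that test called 0 of 7, where 31.6% of all genes were called, 13.0% higher and 18.5% lower. In that comparison 1 gene, Birc5, had an unadjusted p under 0.05, and DESeq2 also called 0. In 48 h against 24 h, 1 gene was higher and 1 lower, against 21.3% of all genes called, 8.61% higher and 12.7% lower. The median log2 fold change of the 7 genes was 0.08, 0.11 and -0.07 in these comparisons, beside 0.01, 0.02 and -0.00 over all genes tested. The comparisons share libraries: the 0 h cells serve 2 of them, as do the 24 h and the 48 h cells, so the values of a gene in them are not independent.

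**Figure D1:**
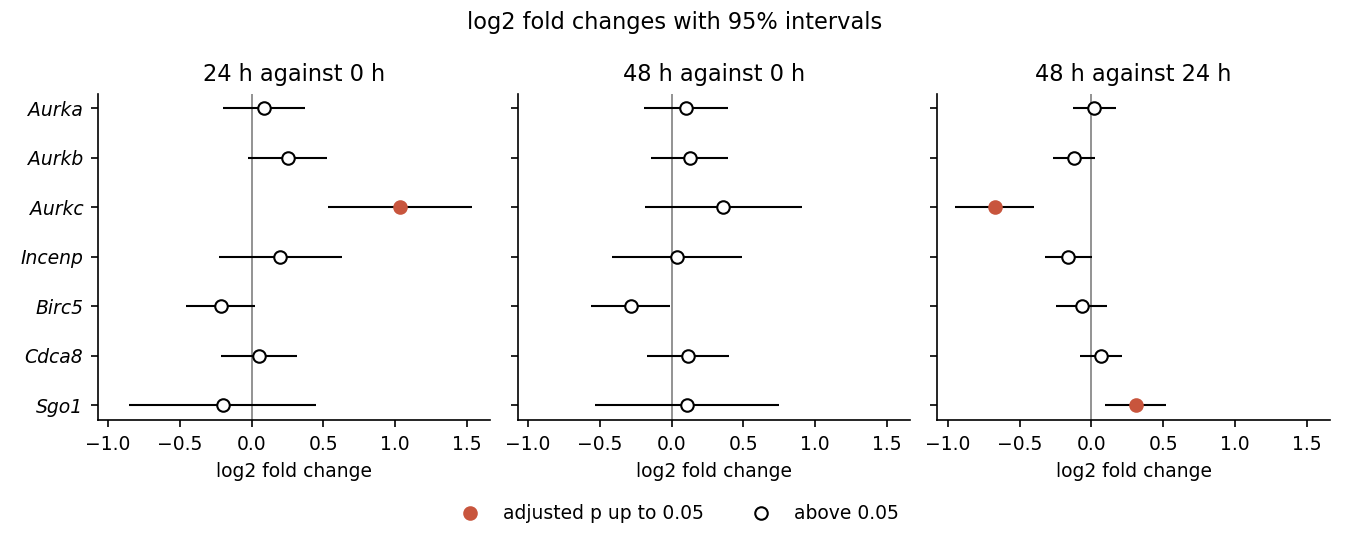
The log2 fold change (horizontal axis) of each of the 7 genes is shown in the 3 comparisons, with lines for 95% intervals and filled points for an adjusted p of up to 0.05. Aurkc lies at 1.03 in 24 h against 0 h and at -0.67 in 48 h against 24 h, Sgo1 at 0.31 in the latter, and the intervals of the other points reach or lie close to 0.

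The 9 libraries held 16825251 to 22201892 counts. Chi-square per degree of freedom between 2 replicates of a group was 7.13 to 81.4 over 9 pairs, more than sampling noise gives, so that each library counts as 1 replicate. The spread between replicates, as edgeR's biological coefficient of variation, was larger where the 0 h libraries took part: 0.22 in 24 h against 0 h, 0.228 in 48 h against 0 h and 0.115 in 48 h against 24 h. All 7 genes passed the expression filter in the 3 comparisons. Defining germ cell genes were present: at 0 h, Ddx4, a germ cell RNA helicase, ranged from 213 to 462 CPM (counts scaled to the size of the library) and Dazl, a germ cell RNA-binding protein gene, from 421 to 1351. The summed level of 9 germ cell markers was 2064 to 3137 CPM at 0 h, 2412 to 2648 at 24 h and 2362 to 2570 at 48 h. Markers of somatic cells moved with time: 8 stromal genes summed to 311 to 399 CPM at 0 h, 2114 to 2445 at 24 h and 2838 to 3129 at 48 h, with 4, 5 and 6 of them called higher and 1 lower in 24 h against 0 h, 48 h against 0 h and 48 h against 24 h. The 7 peritubular myoid genes summed to 13.8 to 15.7, 146.5 to 208 and 263 to 322 CPM, with 5 called higher in each comparison. The 9 Sertoli genes reached 22.2 to 26.9, 56.6 to 91.9 and 94.4 to 109 CPM, with 5, 5 and 3 called higher and 2, 0 and 1 lower, and with the receptor gene Fshr at 3 counts or fewer in every library. The 7 Leydig genes reached 4.59 to 7.00, 28.7 to 44.8 and 29.1 to 37.3 CPM, with 3, 4 and 0 called higher and Lhcgr likewise at 3 counts or fewer. At 0 h, Rhox8 and Dhh of the Sertoli list, Actg2 and Myocd of the myoid list and Hsd3b1 and Insl3 of the Leydig list were also at 3 counts or fewer in every library. The 6 endothelial genes summed to 70.1 to 77.2, 28.3 to 36.3 and 20.9 to 24.0 CPM, with 1, 1 and 0 called higher and 3 lower each time. The 6 macrophage genes summed to 16.2 to 19.0, 7.22 to 12.4 and 8.49 to 10.1 CPM, with 2, 1 and 1 called higher and 1, 1 and 0 lower. For comparison, the shares of all genes called higher and lower in these comparisons are given above. The part of these other cells in the results was not tested. In bulk RNA, fewer cells of a type and less RNA per cell cannot be told apart.

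The 7 genes lie on 6 chromosomes of the build GRCm38, by GENCODE release M21. Aurka (ENSMUSG00000027496) is at chr2:172356190-172370535 on the minus strand, Aurkb (ENSMUSG00000020897) at chr11:69045647-69051664 on the plus strand and Aurkc (ENSMUSG00000070837) at chr7:6995300-7003091 on the plus strand. Incenp (ENSMUSG00000024660) is at chr19:9872296-9899551 on the minus strand, Birc5 (ENSMUSG00000017716) at chr11:117849251-117855743 on the plus strand, Cdca8 (ENSMUSG00000028873) at chr4:124918465-124939311 on the minus strand and Sgo1 (ENSMUSG00000023940) at chr17:53674786-53689333 on the minus strand. All are protein-coding, and the counts cover the exons of each. How far a gene's reads can be assigned to it differs. In windows of 75 bases at 97% identity, 91.7% of the longest Aurkc transcript was also found in other annotated genes, among them the processed pseudogene Gm12463, so Aurkc counts are uncertain. Gm12463 itself had 15 to 34 counts in the 9 libraries. Its levels were 1.00 ± 0.286, 1.35 ± 0.432 and 1.01 ± 0.336 CPM (SD, n = 3) at 0 h, 24 h and 48 h. Levels of Gm6909 and Gm7789, which share sequence with Aurkc as well, are not given here. The part of these genes in the Aurkc counts was not tested. The shared part was 17.8% for Sgo1, 4.6% for Birc5, 3.9% for Aurka, 3.6% for Cdca8 and 0% for Aurkb and Incenp. Cdca8 also shares 232 exon bases, 4.5% of its exons, with 9930104L06Rik on the opposite strand, and without a stated strand setting the reads of that stretch cannot be told apart.

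Start regions were read because many G2/M genes are known to carry a cell cycle homology region, TTTGAA or TTCGAA, near their start, often with CCAAT boxes upstream. RefSeq windows for GRCm38.p6, from 250 bases before to 50 after each annotated start, were read for Aurka, Aurkc, Birc5 and Sgo1, 4 of the 7 genes. On either strand, TTTGAA was in 17.9% of 32851 such windows. In a general G2/M gene list without the 7 genes, 31 of 44 genes (70.5%) held it in any of their windows. A share of genes and a share of windows are different units, as a gene may have several windows. Aurka held TTTGAA, at 33 bases after the start, and Sgo1 held TTCGAA, which 1.6% of all windows hold, at 28 bases after it. Both stretches are printed 5′ to 3′ on the strand of the gene, with the searched letters in capitals, to show the 2 forms of the element beside each other.
Aurka, chr2:172370521-172370550, minus strand: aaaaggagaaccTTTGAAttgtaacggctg
Sgo1, chr17:53689271-53689300, minus strand: gtaacgcagaatTTCGAAtgtggcggcggt
CCAAT was in 37.4% of all windows and in any window of 77.3% of the G2/M genes, and Aurka, Aurkc and Sgo1 held it. In Aurka it lay upstream of the start, at -51 and -19, in Sgo1 3 bases after the start and in Aurkc 25 bases after it on the opposite strand. Birc5 held none of the searched letters. The 120 bases before the start are printed for Aurka, with its 2 CCAAT boxes in capitals, and for Birc5, as the member whose window had no match.
Aurka, chr2:172370571-172370690, minus strand: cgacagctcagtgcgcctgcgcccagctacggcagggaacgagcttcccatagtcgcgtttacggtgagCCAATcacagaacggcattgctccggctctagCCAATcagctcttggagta
Birc5, chr11:117849117-117849236, plus strand: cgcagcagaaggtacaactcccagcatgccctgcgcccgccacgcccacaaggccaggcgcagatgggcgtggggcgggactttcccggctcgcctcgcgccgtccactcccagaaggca
Because retinoic acid was in the differentiation medium, the half-site AGGTCA of nuclear receptors was searched as well. It was in 16.3% of all windows and in any window of 9.1% of the G2/M genes. Among the 4 genes it was in Aurkc, 78 bases before the RefSeq start and on the opposite strand. The strand of the gene, printed here, thus reads TGACCT (capitals).
Aurkc, chr7:6995295-6995324, plus strand: tgcccctcctgcTGACCTccgcaaatggta
By GENCODE M21, the Sgo1 stretch lies whole in exons of its gene, as do 15 of the 30 bases for Aurka and 25 of the 30 for Aurkc, while the stretches of 120 bases hold no exon base of Aurka or Birc5. A match of these letters is a description of the sequence and not a site of binding, and the absence of a match says only that the letters are not in this window.

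Aurkc, the kinase of meiotic germ cells, gave 3.99, 6.80 and 6.33 CPM in the 0 h libraries, 11.4, 11.2 and 12.2 CPM at 24 h and 6.55, 8.0 and 7.45 CPM at 48 h. These levels rest on 64, 137 and 127 counts at 0 h, 232, 210 and 250 at 24 h and 125, 184 and 147 at 48 h. Every 24 h library lay above every library of the other times, while the 0 h and 48 h libraries overlapped. From 0 h to 24 h, Aurkc rose 2.05-fold, with a 95% interval of 1.45 to 2.90, a log2 fold change of 1.03 ± 0.22 (SE) and an adjusted p of 0.0114 by edgeR. From 24 h to 48 h it fell to 0.627 of its level, with an interval of 0.519 to 0.759, a log2 fold change of -0.67 ± 0.12 (SE) and an adjusted p of 0.00544 by edgeR. At 48 h against 0 h, the log2 fold change was 0.36 ± 0.23 (SE), with an interval of -0.19 to 0.91 and an adjusted p of 0.291 by edgeR. The call of the rise was lost without 24 h replicate 3, at an unchanged size (log2 fold change 1.01, adjusted p 0.052 by edgeR), and the call of the fall was lost with all 9 libraries in 1 fit (log2 fold change -0.66, adjusted p 0.0799 by edgeR). Without 0 h replicate 1, the lowest library, the log2 fold change from 0 h to 24 h was 0.84, with an adjusted p of 0.00593 by edgeR. Between 24 h and 48 h, the stromal, myoid and Sertoli sums given above were higher in every library, the endothelial sums were lower, and the Leydig and macrophage sums overlapped. Within the Sertoli list, Clu, Amhr2 and Dhh were called higher from 24 h to 48 h by edgeR. Only Amh, a hormone of immature Sertoli cells, was called lower. Its levels were 0.133 ± 0.126, 5.80 ± 2.16 and 0.829 ± 0.347 CPM (SD, n = 3) at 0 h, 24 h and 48 h. The part of somatic cells in the Aurkc levels was not tested.

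Aurkb, the kinase of the mitotic complex, gave 85.3, 94.7 and 107 CPM at 0 h, 117, 114 and 107 CPM at 24 h and 105, 108 and 99.7 CPM at 48 h. The 24 h libraries lay above the 0 h libraries, though 24 h replicate 3 and 0 h replicate 3 were nearly level, and the 48 h libraries overlapped both groups. The log2 fold change was 0.25 ± 0.12 (SE) at 24 h against 0 h, with an interval of -0.02 to 0.52 and an adjusted p of 0.171 by edgeR, and 0.13 ± 0.11 (SE) at 48 h against 0 h, with an adjusted p of 0.457. From 24 h to 48 h it was -0.12 ± 0.07 (SE), with an adjusted p of 0.218 by edgeR. With offsets for GC and length in the fit, Aurkb was called higher at both times, with log2 fold changes of 0.32 and 0.28 and adjusted p of 0.0172 and 0.0137 by edgeR. It was also called at 24 h without 0 h replicate 3, its highest 0 h library, with a log2 fold change of 0.36 and an adjusted p of 0.0285 by edgeR.

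Aurka, the kinase of spindle poles, gave 64.0, 62.3 and 78.2 CPM at 0 h, 69.9, 70.6 and 74.1 CPM at 24 h and 70.8, 71.5 and 77.2 CPM at 48 h. The 0 h libraries enclosed those of both later times, with 0 h replicate 3 the highest of all 9. The log2 fold change of Aurka was 0.08 at 24 h against 0 h, with an interval of -0.20 to 0.37, 0.10 at 48 h against 0 h, with an interval of -0.19 to 0.39, and 0.02 at 48 h against 24 h, with an interval of -0.13 to 0.17. The adjusted p was 0.685, 0.587 and 0.85 by edgeR.

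**Figure D2:**
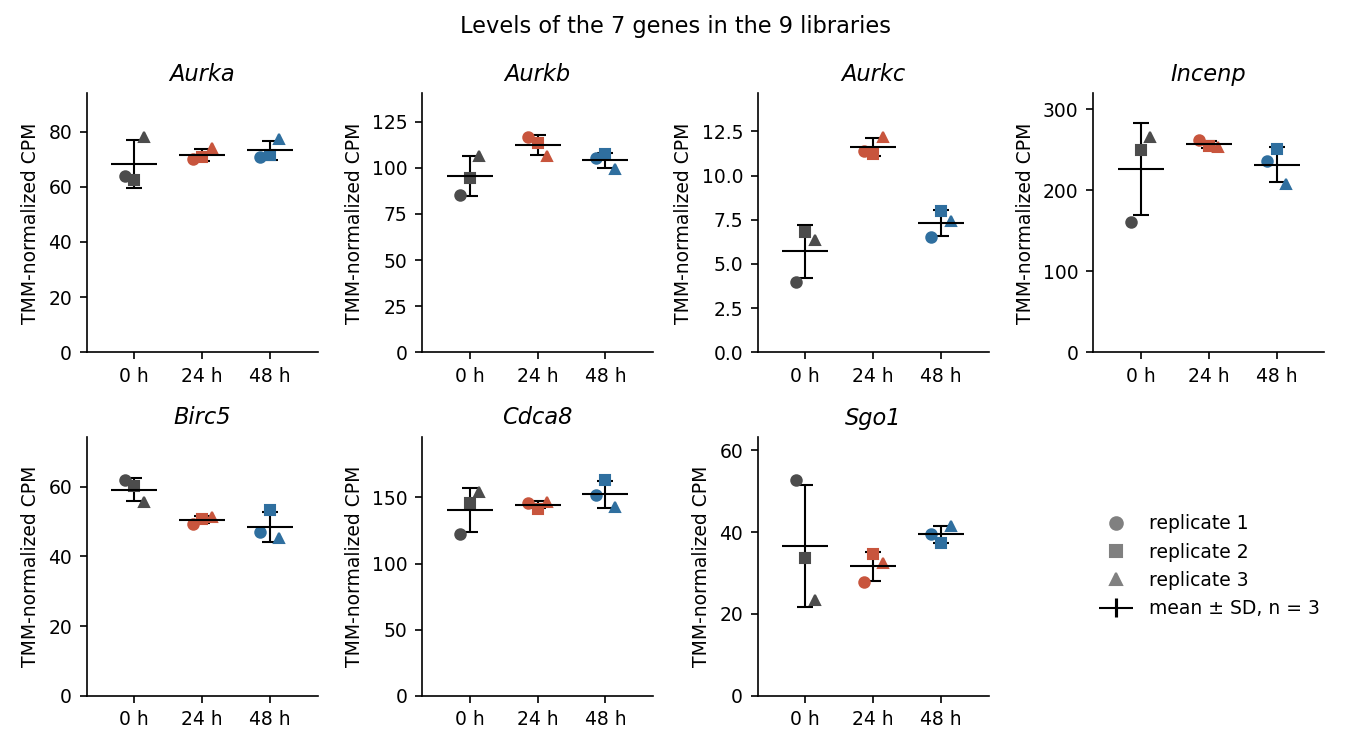
The level of each of the 7 genes in TMM-normalized CPM (vertical axes, from 0, scaled per gene) is shown for every library at 0 h, 24 h and 48 h, with bars for mean ± SD of 3 libraries and a symbol for each replicate number. The 3 Aurkc libraries at 24 h stand above the other 6, while Sgo1 and Incenp spread widely among the 0 h libraries.

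Levels of different genes were compared per length, as FPKM, the CPM of a gene divided by its exon length in kilobases. At 0 h the order was Incenp at 52.1 ± 13.1 FPKM (SD, n = 3), Aurkb at 32.4 ± 3.61, Cdca8 at 27.2 ± 3.22, Aurka at 26.9 ± 3.44, Birc5 at 17.4 ± 0.965, Sgo1 at 9.61 ± 3.91 and Aurkc at 3.75 ± 0.988. In the middle of this order, Cdca8 and Aurka lay within their spread of each other. Within each 0 h library Aurkb was above both. Aurka was at 0.873, 0.766 and 0.854 of the Aurkb FPKM and Cdca8 at 0.814, 0.877 and 0.824. At 24 h the levels were 59.3 ± 1.09 for Incenp, 38.2 ± 1.81 for Aurkb, 28.3 ± 0.880 for Aurka, 27.9 ± 0.577 for Cdca8, 14.9 ± 0.292 for Birc5, 8.30 ± 0.937 for Sgo1 and 7.63 ± 0.345 for Aurkc. Here Aurka and Cdca8, and Sgo1 and Aurkc, did not differ beyond their SDs. The place of Cdca8 against Aurka depended on the length used: with the longest transcript, Cdca8 was at 43.1 ± 0.890 and Aurka at 37.5 ± 1.17 at 24 h, and they were at 45.4 ± 3.04 and 38.4 ± 1.82 at 48 h. With the union of exons, at 48 h the levels were 53.4 ± 4.94 for Incenp, 35.4 ± 1.40 for Aurkb, 29.5 ± 1.97 for Cdca8, 28.9 ± 1.37 for Aurka, 14.3 ± 1.27 for Birc5, 10.3 ± 0.520 for Sgo1 and 4.81 ± 0.480 for Aurkc. Cdca8 and Aurka again lay within their SDs. At each time Incenp and Aurkb, the scaffold and the kinase of the complex, had the highest mean levels per length of the 7 genes, and Aurkc had the lowest. The place of Aurkc is uncertain, as 91.7% of its longest transcript was also found in other genes.

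Per length, Aurkb made up about the same part of the Aurora kinase transcripts at all times: 51.4% ± 0.951 (SD, n = 3) of their summed FPKM at 0 h, 51.5% ± 2.02 at 24 h and 51.2% ± 2.01 at 48 h. The share of Aurkc was 4.61%, 7.29% and 5.84% in the 0 h libraries, 10.0%, 9.98% and 10.9% at 24 h and 6.32%, 7.49% and 7.06% at 48 h. Its 24 h shares lay above all others, 4.39 percentage points over the 0 h mean, and from 24 h to 48 h the mean changed by -3.34 points. These shares carry the uncertainty of the Aurkc counts given above. Aurka took 42.7% ± 2.21 at 0 h, 38.2% ± 1.50 at 24 h and 41.8% ± 1.96 at 48 h. For 3 libraries against 3, the two-sided exact permutation test cannot go below 0.1, which is the p of both Aurkc differences and of those of Aurka between the same times, and the adjusted p over the 9 comparisons of shares was 0.225. The shares of a library sum to the whole, so the differences of Aurka and Aurkc are not independent. The Aurka level itself had a log2 fold change of 0.08 at 24 h against 0 h.

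**Figure D3:**
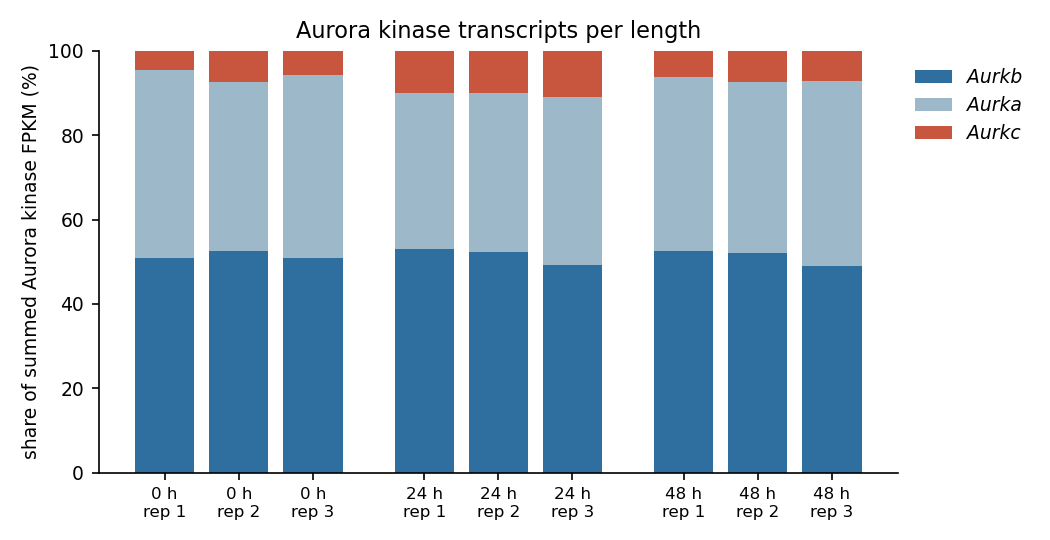
Each bar is 1 library, and its colours give the share (%) of Aurkb, Aurka and Aurkc in their summed FPKM. The Aurkc share is 9.98% to 10.9% in the 24 h libraries and 4.61% to 7.49% in the other 6.

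Incenp, the scaffold of the complex, gave 161, 249.9 and 266 CPM at 0 h, 262, 254 and 253 CPM at 24 h and 235, 250.3 and 208 CPM at 48 h. Replicate 1 at 0 h was far below the other 8 libraries, and the 24 h libraries lay above those of 48 h without overlap. The log2 fold change was 0.20 at 24 h against 0 h, with an interval of -0.23 to 0.63, and 0.04 at 48 h against 0 h, with an interval of -0.42 to 0.49. From 24 h to 48 h it was -0.16 ± 0.07 (SE), with an adjusted p of 0.149 by edgeR. Without 0 h replicate 1, the value at 24 h against 0 h was 0.0088 and that at 48 h against 0 h turned to -0.16.

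Birc5, which encodes survivin, gave 61.9, 60.1 and 55.6 CPM at 0 h, 49.4, 50.8 and 51.4 CPM at 24 h and 47.1, 53.4 and 45.2 CPM at 48 h. All 0 h libraries lay above all later ones, and the 24 h and 48 h libraries overlapped. The log2 fold change was -0.22 ± 0.10 (SE) at 24 h against 0 h, with an interval of -0.46 to 0.03 and an adjusted p of 0.178 by edgeR. At 48 h against 0 h it was -0.29 ± 0.12 (SE), with an interval of -0.56 to -0.01, an unadjusted p of 0.0456 and an adjusted p of 0.111 by edgeR. With all 9 libraries in 1 fit, the latter passed the threshold, at a log2 fold change of -0.29 and an adjusted p of 0.0398 by edgeR. Set against Aurkb per length, Birc5 was at 0.629, 0.55 and 0.452 of the Aurkb FPKM in the 0 h libraries, 0.366, 0.387 and 0.417 at 24 h and 0.388, 0.429 and 0.392 at 48 h. The ratio in every 0 h library was thus above that in every later library.

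Cdca8, which encodes borealin, gave 122, 146 and 154 CPM at 0 h, 146, 141 and 147 CPM at 24 h and 152, 163 and 143 CPM at 48 h. The 3 groups overlapped, and 0 h replicate 1 was the lowest library. The log2 fold change was 0.05 at 24 h against 0 h, with an interval of -0.21 to 0.32, 0.12 at 48 h against 0 h, with an interval of -0.17 to 0.40, and 0.07 at 48 h against 24 h, with an interval of -0.08 to 0.21. The adjusted p was 0.791, 0.52 and 0.506 by edgeR.

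Sgo1, the protector of centromeric cohesin, gave 52.7, 33.7 and 23.4 CPM at 0 h, 27.7, 34.7 and 32.4 CPM at 24 h and 39.5, 37.4 and 41.4 CPM at 48 h. The 0 h libraries held both the highest and the lowest of the 9 values, and the 48 h libraries lay above those of 24 h. Its coefficient of variation at 0 h was 40.7%, the largest of the 7 genes, beside 26.4% for Aurkc, 25.2% for Incenp and 5.54% for Birc5. From 24 h to 48 h, Sgo1 rose 1.24-fold, with an interval of 1.07 to 1.43, a log2 fold change of 0.31 ± 0.09 (SE) and an adjusted p of 0.0442 by edgeR. That call was lost with offsets for GC content and length (log2 fold change 0.12, adjusted p 0.266 by edgeR), with all 9 libraries in 1 fit (0.32, adjusted p 0.502) and without 24 h replicate 1 or 3 or 48 h replicate 1 or 3. Leaving out each library in turn gave 0.22 to 0.38 on the log2 scale, with an adjusted p of 0.0351 to 0.156 by edgeR. The GC content of its longest transcript was 41.5%, the lowest of the 7, while that of the others ran from 47.4% (Birc5) to 54.7% (Incenp). Against 0 h, the log2 fold change was -0.20 at 24 h, with an interval of -0.85 to 0.45, and 0.11 at 48 h, with an interval of -0.54 to 0.75, and both changed sign with 1 of the 0 h libraries left out, to 0.16 at 24 h without 0 h replicate 1 and to -0.11 at 48 h without 0 h replicate 3. Over the 9 libraries, log2 CPM of Sgo1 and Incenp ran opposite to each other, with a Pearson r of -0.85 (n = 9, libraries that share the 0 h spread).

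Partners of the 7 genes were read from lists grouped by role. Levels are given below as means at 0 h, 24 h and 48 h in that order, with calls by edgeR. Of all genes tested, 11.4% were called higher and 14.2% lower at 24 h against 0 h. At 48 h, 13.0% were higher and 18.5% lower against 0 h, and 8.61% higher and 12.7% lower against 24 h. Among 8 activators and spindle cofactors of Aurora kinase A, 3 were called higher and 0 lower at 24 h against 0 h, with a median log2 fold change of 0.29 beside 0.01 over all genes. They were Nedd9, a scaffold that binds the kinase (2.60 ± 0.332, 13.1 ± 2.64 and 11.1 ± 1.46 CPM, SD, n = 3), Tacc3, a microtubule partner and substrate (147 ± 11.7, 198 ± 5.14 and 188 ± 5.87 CPM), and Ajuba, an adaptor (94.2 ± 15.5, 136 ± 5.98 and 116 ± 13.3 CPM). Tpx2, the activator at the spindle, was 126 ± 9.70, 153 ± 4.38 and 179 ± 6.03 CPM, and it was called higher at 48 h against 0 h (log2 fold change 0.50) and against 24 h (0.21). Of these 8 genes, 3 were higher at 48 h against 0 h (median 0.43) and 2 at 48 h against 24 h (median 0.14), the second being Plk1, a kinase of mitotic entry, at 0.23. No gene of this list was called lower in the 3 comparisons by edgeR. The 3 calls at 24 h became 1 with a replicate block, without 0 h replicate 2 or without any 1 of the 24 h replicates. They were 4 with library size alone. From 24 h to 48 h, the 2 calls became 0 with all 9 libraries in 1 fit or with a replicate block. They were also 0 without 24 h replicate 1 or 48 h replicate 1 or 3, and 4 without 48 h replicate 2.

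The genes that bring the complex to centromeres were mixed. Cdk1, the mitotic kinase that pairs with cyclin B1, was 83.6 ± 1.76, 46.3 ± 3.75 and 50.2 ± 2.21 CPM and thus fell against 0 h at both times, at -0.84 and -0.73 on the log2 scale. Ccnb1, which encodes cyclin B1, was 263 ± 24.8, 244 ± 8.89 and 332 ± 7.04 CPM and rose at 48 h against 0 h (0.33) and against 24 h (0.43). Its rise against 0 h lay close to the threshold, with an adjusted p of 0.0497 by edgeR. Ttk, a checkpoint kinase, rose from 24 h to 48 h (0.39). Haspin, the kinase of the histone H3 mark that survivin reads, was 18.3 ± 2.36, 18.2 ± 1.35 and 20.98 ± 1.30 CPM, and Sgo2a, the second shugoshin, 18.9 ± 10.4, 15.3 ± 1.22 and 23.6 ± 8.56 CPM, neither of them called. Sgo2b had 3 counts or fewer in every library at 0 h and 24 h and was not tested. Of the 7 genes tested in this list, 0 were higher and 1 lower at 24 h against 0 h (median -0.10). At 48 h, 1 was higher and 1 lower against 0 h (median 0.20), and 2 higher and 0 lower against 24 h (median 0.39). Of all genes tested, 25.5%, 31.6% and 21.3% were called in these comparisons. The number of calls in this list at 48 h was not stable. Against 0 h, the 2 calls became 1 with a replicate block or with no expression filter. Their number was also 1 without 0 h replicate 2 or any 1 of the 48 h replicates, and 4 without 0 h replicate 1. Against 24 h, the 2 calls became 1 when the 9 libraries were fitted together. They became 4 with no expression filter or without 48 h replicate 2.

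Among 8 kinetochore genes, substrates or partners of Aurora kinase B, Dsn1, a subunit of the Mis12 complex, rose at 24 h (log2 fold change 0.53) and was also higher at 48 h against 0 h (0.55), as was Kif2c, a microtubule depolymerase (0.37). Those were the only calls among them against 0 h, with medians of -0.01 and 0.42. Of all genes tested, 25.5% at 24 h and 31.6% at 48 h were called against 0 h. The 1 kinetochore call at 24 h became 0 without any 1 of the 24 h replicates and 3 with GC and length offsets. The 2 at 48 h became 1 with no expression filter or with a replicate block. They were also 1 without 0 h replicate 2 or any 1 of the 48 h replicates, and 4 without 0 h replicate 1. From 24 h to 48 h, edgeR and DESeq2 called 0 of the 8, with 1 at an unadjusted p under 0.05 and a median of 0.12. Of the central spindle genes, some were higher at 48 h. Racgap1, a subunit of centralspindlin, was 104.9 ± 10.0, 115 ± 6.32 and 162 ± 3.91 CPM, and its log2 fold change at 48 h was 0.63 against 0 h and 0.48 against 24 h. Kif20a, the kinesin that carries the passenger complex to the midzone, was 122 ± 5.94, 141 ± 7.61 and 168 ± 11.9 CPM (0.46 and 0.24). Of 7 central spindle genes, 3 were higher at 48 h against 0 h (median 0.46), where 13.0% of all genes were called higher. At 48 h against 24 h, 4 were higher (median 0.24), where 8.61% of all genes were, and none was lower in either comparison. The latter 4 were 1 with all 9 libraries in 1 fit and 1 to 4 with 1 library left out (1 without 24 h replicate 1, 48 h replicate 1 or 48 h replicate 3), and the former 3 were 1 to 5 (1 without 0 h replicate 2, 48 h replicate 2 or 48 h replicate 3, and 5 without 0 h replicate 1). At 24 h against 0 h, edgeR and DESeq2 called 0 of them, with 1 at an unadjusted p under 0.05 and a median of 0.22.

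Among subunits of phosphatases that reverse Aurora kinase phosphorylation, Ppp1ca and Ppp2r5a fell at both times. Ppp1ca, a catalytic subunit of protein phosphatase 1, was 541 ± 127, 270.2 ± 30.9 and 214 ± 10.8 CPM, which against 0 h is -0.99 at 24 h and -1.34 at 48 h on the log2 scale. Ppp2r5a, a regulatory B56 subunit of protein phosphatase 2A, was 132 ± 6.74, 98.7 ± 4.19 and 61.6 ± 2.03 CPM and fell likewise (-0.40 and -1.09). Of 12 phosphatase genes, 3 were lower and 0 higher at 24 h against 0 h, 2 lower and 1 higher (Cdca2, a chromatin-targeting partner of protein phosphatase 1, at 0.34) at 48 h against 0 h, and 3 lower and 0 higher at 48 h against 24 h, with medians of -0.05, -0.11 and -0.08. The 3 calls among 12 at 24 h stand beside 25.5% of all genes called, a like share, and their number ran from 1 (among others with library size alone) to 6 (with GC and length offsets) over the alternatives. At 48 h against 0 h, the 3 calls became 9 with GC and length offsets and 2 with a replicate block. Of 4 genes of the machinery that degrades Aurora kinases at mitotic exit, Ube2c, an E2 enzyme, was 93.9 ± 13.2, 62.8 ± 4.84 and 82.3 ± 6.47 CPM, falling to 24 h (-0.57) and rising from there to 48 h (0.38), when Cdc20, an activator of the anaphase-promoting complex, rose too (0.25). The 1 call at 24 h against 0 h became 0 with a replicate block or without any 1 of the 24 h replicates. The 2 calls at 48 h against 24 h became 0 with all 9 libraries in 1 fit or without 24 h replicate 1. At 48 h against 0 h, edgeR and DESeq2 called 0 of these 4 genes, and 0 had an unadjusted p under 0.05. With GC and length offsets, 2 were called there. Of 6 other kinases known to phosphorylate histone H3, 2 were higher at 24 h against 0 h, Pim1 (108 ± 26.9, 294.5 ± 4.78 and 227 ± 28.7 CPM) and Rps6ka4 (10.0 ± 1.59, 17.7 ± 1.78 and 10.4 ± 0.460 CPM). Both fell from 24 h to 48 h, at -0.39 and -0.78 on the log2 scale. At 48 h against 0 h Pim1 alone of the 6 was called, at 1.08. Of all genes tested, 11.4% and 13.0% were called higher at 24 h and 48 h against 0 h. From 24 h to 48 h, 8.61% were called higher and 12.7% lower.

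**Figure D4:**
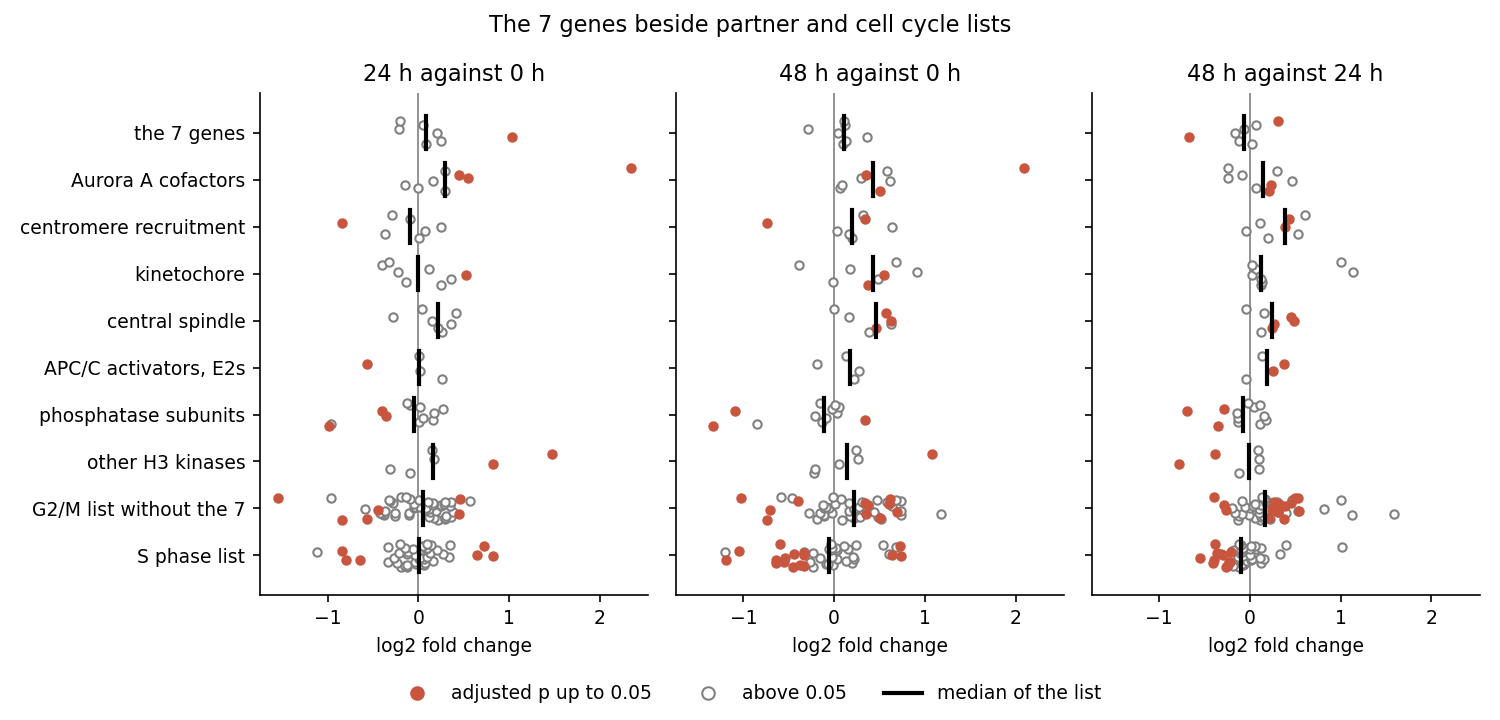
Each point is 1 gene, placed by its log2 fold change (horizontal axis) in the 3 comparisons and by list (vertical axis), with filled points for an adjusted p of up to 0.05 and a black line for the median of the list. The central spindle list has its median at 0.46 in 48 h against 0 h, where the 7 genes have theirs at 0.11.

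General cell cycle lists give the setting of the 7 genes. The G2/M list shares genes with the partner lists above, among them Tpx2, Tacc3, Cdk1, Ttk, Kif2c, Cdc20 and Ube2c. Its calls are thus not separate from theirs. In a G2/M list of 50 genes without the 7, 2 were higher and 4 lower at 24 h against 0 h, 7 higher and 4 lower at 48 h against 0 h, and 12 higher and 3 lower at 48 h against 24 h, with median log2 fold changes of 0.05, 0.22 and 0.17. Nek2, a centrosome kinase, was among the higher genes at both times against 0 h (0.46 and 0.61). In an S phase list of 43 genes, 3 were higher and 3 lower, then 3 higher and 13 lower, then 0 higher and 12 lower in the same comparisons, with medians of 0.01, -0.06 and -0.09. Of all genes tested, 11.4%, 13.0% and 8.61% were called higher and 14.2%, 18.5% and 12.7% lower in these comparisons. The numbers of called genes in both lists were not stable. With 1 library left out, the 6 calls of the G2/M list at 24 h against 0 h became 1 (without 24 h replicate 1 or 3) to 11 (without 0 h replicate 1), its 11 calls at 48 h against 0 h became 4 to 20 (20 without 0 h replicate 1), and its 15 calls at 48 h against 24 h became 4 when 24 h replicate 1 and 22 when 48 h replicate 2 was left out. The 12 calls of the S phase list at 48 h against 24 h became 3 without 48 h replicate 1, and its 16 calls at 48 h against 0 h became 7 without that library. With all 9 libraries in 1 fit, the G2/M and S phase lists had 0 and 1 calls at 48 h against 24 h. Against 0 h, the G2/M list had 14 calls at 24 h and 24 at 48 h with GC and length offsets. With a replicate block it had 2 and 5. The summed level of the G2/M list was 6252 to 8163 CPM at 0 h, 6681 to 7446 at 24 h and 7318 to 8822 at 48 h, and that of the S phase list 7553 to 8520, 7010 to 7481 and 6543 to 6907 CPM. The summed level of the 7 genes was 551 to 690.2 CPM at 0 h, 677 to 683 at 24 h and 622 to 692 at 48 h, so the later libraries lay inside or next to the range of 0 h.

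Genes with the most similar course over the 9 libraries were named by the Pearson correlation of log2 CPM, among 10341 genes with a mean of at least 10 CPM. For Aurkc they were Plppr3 (r = 0.98), Fbxw5 (0.98) and Apln (0.98). Plppr3 had means of 24.5, 48.6 and 31.5 CPM at 0 h, 24 h and 48 h, a like order that follows from its choice by correlation. For Aurkb they were Fam53c (0.99), Plekhg4 (0.98) and Sesn2 (0.98), and for Aurka Gm4294, Rpl15-ps2 and Atic (0.92 each). For Incenp they were Ldb1 (0.99), Xrcc1 (0.98) and Zdhhc18 (0.98), and for Sgo1 Zfp426 (0.99), Nxt2 (0.99) and Hsf2 (0.99). For Birc5 they were Tdrp (0.97), Gm9762 (0.96) and Lactb (0.95), and for Cdca8 Rnf220 (0.98), Pdcd11 (0.97) and Kifc5b (0.97). None of the 7 genes appears in the list of another, since members were left out of it; among the members, the highest correlation was that of Aurkb with Aurkc (r = 0.83), followed by Aurkb with Incenp (0.82) and Incenp with Cdca8 (0.81). These correlations describe 9 libraries that share their depth and the spread of the 0 h group.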

How the data were processed

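RNA-seq libraries of sorted EGFP-SSCs were read at 3 time points with 3 libraries each. For each library the authors deposited counts, whole numbers of reads per Ensembl gene, without normalization. The submitters' processing notes name fastp, HISAT2, featureCounts and GRCm38, and tool versions, the annotation release and the strand setting are not given in the sources used here. Names, positions and lengths came from GENCODE M21, which held 45143 of 46078 identifiers. Each pair of time points was tested on its 6 libraries by quasi-likelihood in edgeR 4.0.16 (R 4.3.3, two-sided, filterByExpr, TMM, all genes, Benjamini-Hochberg adjustment, threshold 0.05). TMM factors over the 9 libraries gave CPM, and FPKM use the union of exons. Log2 CPM for correlations used a prior count of 2. A gene with at most 3 counts in every library of a time was taken as at the floor. Shared sequence was measured with BLAST 2.17.0, and promoters came from RefSeq on GRCm38.p6. Start regions of 3 of the 7 genes are not reported here. The members and lists were written from general knowledge and chosen with earlier results of these data known. The G2/M and S phase lists follow those of Seurat. Genes named are the 7 members, list genes, and the 3 genes nearest to each member in course. The alternatives were DESeq2 1.42.0, other normalizations and filters, all 9 libraries in 1 fit, a replicate block, GC and length offsets (splines with 5 and 4 degrees of freedom), the longest transcript for FPKM, and leaving out each library. The procedure was tested on simulated data for 24 h against 0 h, with a spread between replicates set lower than in the data. That test therefore cannot tell how the procedure performs at the spread of these libraries. Figures were drawn with matplotlib 3.10.9. Totals per library were 16825251 to 22201892 counts. Other data of the study were not analysed here.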

Additional observations from a re-analysis of the deposited data

How the results depend on the processing

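The number of the 7 genes called at 24 h against 0 h was 2 with GC and length offsets and 0 to 2 when 1 library was left out, beside 1. At 48 h against 0 h it was 1 with all 9 libraries in 1 fit and 1 with the offsets, beside 0. At 48 h against 24 h it was 0 in the fit of all 9 libraries, 1 with the offsets, 1 with the replicate block and 1 to 2 when 1 library was left out, beside 2. Direction turned for Sgo1 at 48 h against 0 h with the offsets, to a log2 fold change of -0.0726. Leaving out 1 library gave ranges across 0 for Cdca8 (-0.0367 to 0.15) and Sgo1 (-0.41 to 0.16) at 24 h against 0 h, for Incenp (-0.16 to 0.20) and Sgo1 (-0.11 to 0.47) at 48 h against 0 h, and for Aurka (-0.0195 to 0.0653) at 48 h against 24 h. The Aurkc share of Aurora kinase FPKM differed between 48 h and 24 h by -2.63 percentage points with the longest transcript as length, beside -3.34. Over settings that keep every library, 160 log2 fold changes of the 7 genes kept direction and side of the threshold, 3 newly passed it, 4 no longer did and 1 turned. Counts of called list genes stayed within 1.5 times in 172 cases under these settings and moved further in 44, and with 1 library left out they stayed in 83 and moved further in 79. The cause of these differences was not tested. Replicate numbers did not pair the libraries: deviations of libraries of the same number correlated at -0.28 to 0.20. With the replicate block, Sgo1 at 48 h against 24 h was no longer called (log2 fold change 0.31, adjusted p 0.0831 by edgeR), and no other call of the 7 genes changed. Aurkc had the fewest counts of the 7 genes, 64 to 250 a library.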
